A study of Mus musculus with 8 samples.

Results

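Interferon-stimulated and nucleic acid sensing genes were examined in RNA-seq libraries from C2C12, an established line of mouse myoblasts that proliferates as single cells and fuses into myotubes when induced. The set held 47 genes, chosen by name with earlier results of these data known. It took in sensors of foreign or misplaced RNA and DNA, their adaptors, and the type I interferon receptor with its kinases. The transcription factors of the response and the proteins the response induces were also included. All 47 symbols were found among the 35976 genes of the expression table. In 4 libraries the cells had been transfected with a non-targeting shRNA (control), and in the other 4 with an shRNA directed at Atad2, the gene of a bromodomain ATPase found on chromatin. RNA from both groups was taken 48 h after transfection. The labels give neither an untransfected group nor the number of shRNA sequences used, and they do not say whether the libraries came from separate cultures, so the tests measure the spread between these libraries, which may be technical.

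In an infected cell, the RIG-I-like helicases bind viral RNA in the cytosol and signal through the mitochondrial adaptor MAVS, while cGAS detects cytosolic DNA and signals through STING. Both routes activate IRF3 and IRF7 and lead to secretion of interferon, which binds its receptor on the same or neighbouring cells and, through JAK1 and TYK2, activates a complex that holds STAT2 and IRF9. That complex binds the interferon-stimulated response element (ISRE) in the promoters of the effector genes, which restrict viral replication at many steps. Many of these genes are also transcribed at a low basal level without infection.

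The promoters of 3 guanylate-binding protein genes that fell, of Ifit3, which fell, of Ifit1, which rose, and of Isg15, which did not pass the test, are shown so that the response element can be seen beside the values that follow. Each stretch is 160 bases of GRCm38.p6, 5′ to 3′ on the gene's strand, that end just before the RefSeq start site or, where GENCODE starts the gene earlier, at most 15 bases inside it. Capitals mark matches to an ISRE-like pattern, GAAANNGAAA, searched on both strands. In the first 5 stretches the match lies on the other strand and so reads as TTTC repeats. In Gbp3 and Isg15 matches overlap and run into each other.
Gbp2, chr3:142620457-142620616, + strand: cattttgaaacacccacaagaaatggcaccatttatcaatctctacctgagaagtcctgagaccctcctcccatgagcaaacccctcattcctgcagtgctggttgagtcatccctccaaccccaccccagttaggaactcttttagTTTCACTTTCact
Gbp3, chr3:142559881-142560040, + strand: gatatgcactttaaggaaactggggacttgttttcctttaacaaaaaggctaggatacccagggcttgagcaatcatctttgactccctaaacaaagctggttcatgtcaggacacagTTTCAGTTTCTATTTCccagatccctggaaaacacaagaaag
Gbp7, chr3:142530176-142530335, + strand: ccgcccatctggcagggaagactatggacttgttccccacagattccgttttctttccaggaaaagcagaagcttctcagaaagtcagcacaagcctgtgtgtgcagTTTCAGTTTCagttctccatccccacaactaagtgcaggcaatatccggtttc
Ifit3, chr19:34583369-34583528, + strand: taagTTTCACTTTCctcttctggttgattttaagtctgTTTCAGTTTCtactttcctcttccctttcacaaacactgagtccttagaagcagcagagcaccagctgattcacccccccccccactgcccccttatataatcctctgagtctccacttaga
Ifit1, chr19:34640726-34640885, + strand: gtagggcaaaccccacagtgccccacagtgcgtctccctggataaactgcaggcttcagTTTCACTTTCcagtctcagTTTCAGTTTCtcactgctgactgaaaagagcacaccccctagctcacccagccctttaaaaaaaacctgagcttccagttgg
Isg15, chr4:156200819-156200978, - strand: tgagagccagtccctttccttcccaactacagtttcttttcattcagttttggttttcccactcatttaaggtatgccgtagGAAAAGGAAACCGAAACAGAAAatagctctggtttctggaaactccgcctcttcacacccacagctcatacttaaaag

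Levels are log2(normalized count + 1), normalized by the authors with 1 size factor per library, and differences are log2 fold changes of the Atad2 group over the control group ± SE, from limma, n = 4 libraries per group. A gene passed at a Benjamini-Hochberg adjusted p under 0.05 over the 14703 genes with a mean level above 3, and all tests were two-sided. The added 1 shrinks the fold changes of weakly expressed genes on this scale. Whole reads recovered from the values summed to 61.4 to 73.0 Mreads (M for the prefix mega) in a control library (66.6 ± 4.80, SD, n = 4), and an Atad2 library held 50.3 to 72.3 Mreads (61.7 ± 10.4, SD, n = 4). At these depths 3 reads, the limit that a count of 0 allows, corresponded to 0.0411 to 0.0596 RPM (reads per Mread of the library), which covers counting error only. The targeted transcript, Atad2, had 27186 to 29381 reads in the control libraries and 3306 to 4086 in the Atad2 libraries, a log2 fold change of -2.73 ± 0.05 (adjusted p = 4.6e-20).

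Of the 47 genes, 41 had a mean level above 3 and were tested, and all 41 had a mean above 3 in both groups. In the Atad2 libraries 22 of the 41 fell, 5 rose and 14 did not pass. Changes were common in this comparison: over all genes tested, 29.6% passed as lower and 30.8% as higher. Gbp7, Parp14 and Gbp2 had the lowest log2 fold changes of the set, and Oasl1 and Ifit1 the highest. Of the 41, 10 fell at least 2-fold and 2 rose at least 2-fold, against 8.61% and 2.52% of all genes tested. These 2 shares were taken over all levels together, not at matched level. The 4 Atad2 libraries lay below all 4 control libraries for 21 of the 41 genes and above them for 4, against 25.8% and 27.7% of all genes tested. The median log2 fold change was -0.21 over the 41 genes and -0.0095 over all genes tested. In bulk RNA, fewer cells that express a gene and less RNA per cell cannot be told apart.

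**Figure D1:**
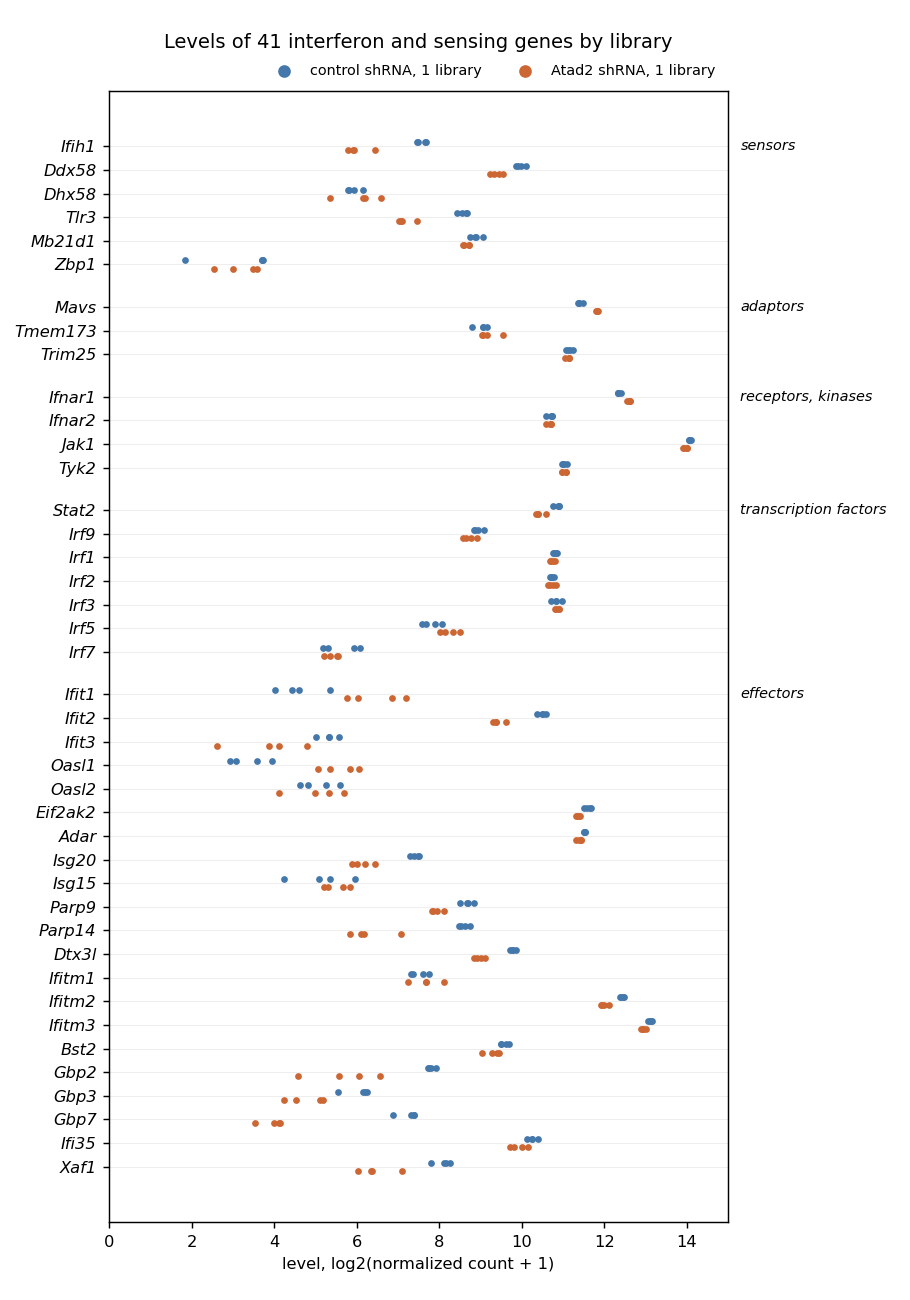
Level of the 41 tested genes in each library, on the log2(normalized count + 1) scale (horizontal axis), grouped by role. Each blue point is 1 control shRNA library and each orange point 1 Atad2 shRNA library; for 21 genes the orange points lie to the left of all blue ones, and for 4 (Mavs, Ifnar1, Ifit1 and Oasl1) to the right.

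The 41 genes also varied between libraries of a group. Atad2 replicate 4 was the highest of the 4 Atad2 libraries for 24 of the 41 (58.5%), against 28.7% of all genes, and for 16 of the 22 that fell. Its median deviation from the group mean was 0.14 on the log2 scale over the 41 genes and -0.001 over all genes. The other 3 Atad2 libraries were the highest for 4, 5 and 7 genes, and the control libraries for 9, 4, 13 and 14 within their group. This count was chosen after the values were seen. Without Atad2 replicate 4, 21 of the 41 genes were lower and 5 higher.

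**Figure D2:**
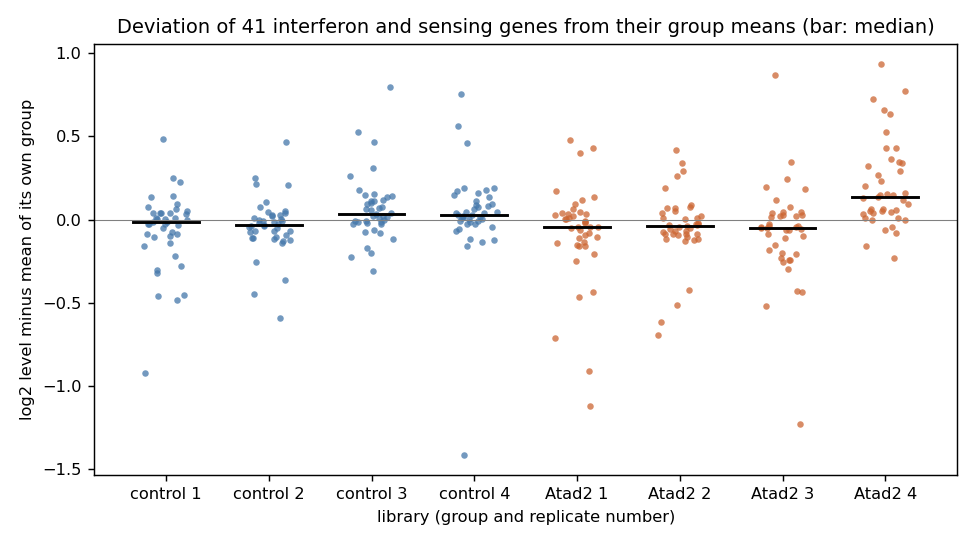
Level of each of the 41 genes minus its own group's mean (vertical axis, log2 scale) in each of the 8 libraries (horizontal axis); each point is 1 gene and the black bar the median. The bar of Atad2 replicate 4 stands at 0.14, while those of the other 7 libraries lie between -0.050 and 0.031.

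How often a gene fell depended on its level in this comparison, so the set was also read against all genes of the same mean level over the 8 libraries. Between levels 3 and 5, 1 of 3 genes of the set fell, against 27.4% of all genes in that band. There the median log2 fold change was higher for the 3 (-0.09) than for all genes (-0.56). From 5 to 8, where 14 of the genes lay, 8 fell, against 44.6%, and the median log2 fold change was -1.28 for the 14 and -0.43 for all genes. From 8 to 10, 6 of 9 fell, against 38.0% of all genes, with medians of -0.29 for the 9 and -0.10 for all genes. From 10 to 12, 4 of 11 fell, against 26.6%, with medians of -0.03 for the 11 and 0.04 for all genes. Above 12, 3 of 4 fell, against 19.9%, with a median of -0.14 for the 4 (Ifnar1, Jak1, Ifitm2 and Ifitm3) and 0.10 for all genes. In these bands all genes passed as higher in 5.51%, 11.2%, 18.8%, 37.9% and 54.5% of cases from the lowest to the highest, and 1 gene of the set rose in each band. Quantile normalization, which brought the medians of all genes in every band to between -0.0017 and 0.020, gave 19 of the 41 genes lower and 9 higher. Under the same scaling, 4059 of the 14703 genes tested were lower and 4236 higher.

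**Figure D3:**
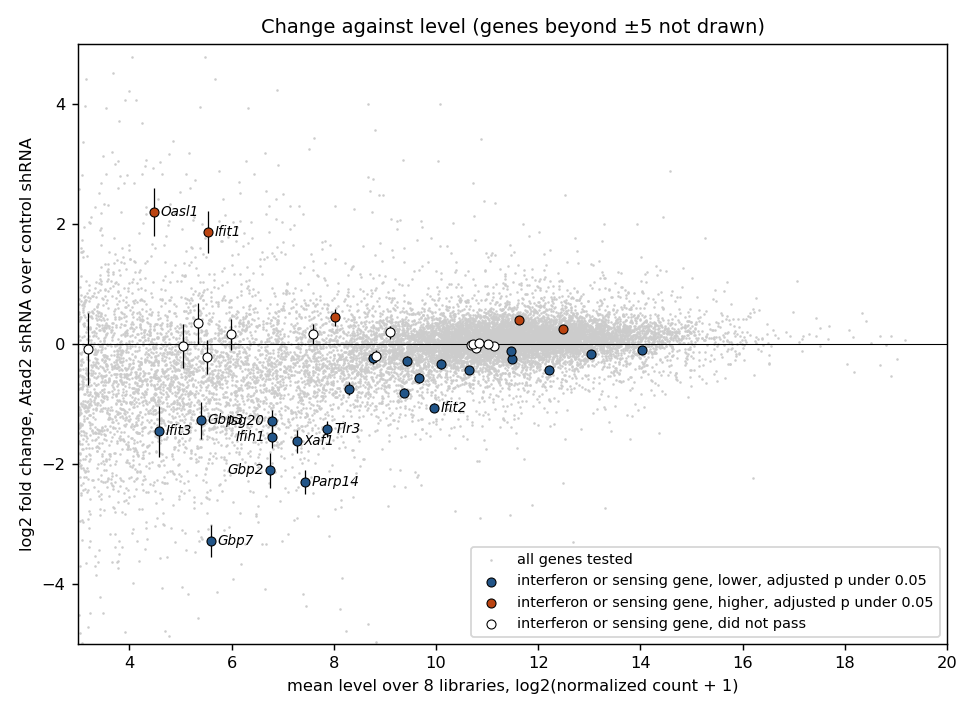
Log2 fold change of Atad2 over control shRNA (vertical axis) against mean level over the 8 libraries (horizontal axis, log2(normalized count + 1)). Grey points are all genes tested, of which 18 beyond ±5 are not drawn; larger points are the 41 interferon and sensing genes with their SE, named where a gene changed at least 2-fold, and most of the named genes lie below level 8.

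**Figure D4:**
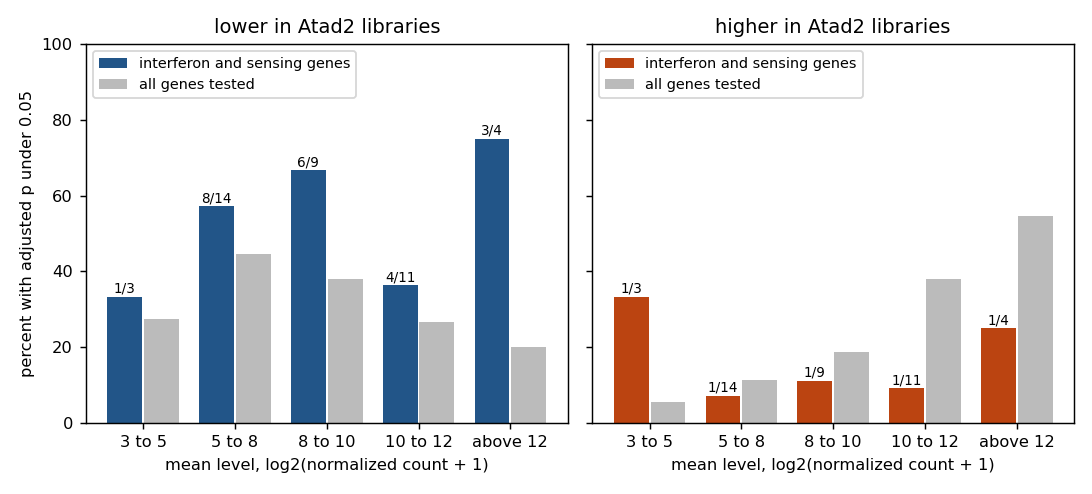
Percent of genes that passed the test as lower (left) or higher (right) in the Atad2 libraries, by band of mean level; coloured bars are the interferon and sensing genes with their counts above, and grey bars all genes tested. The coloured bar is above the grey one in all 5 bands on the left, with 3 to 14 genes of the set in a band.

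Among the 6 sensors, 4 fell and 2 did not pass. Counts by role, here and below, are to be read against 29.6% lower and 30.8% higher over all genes tested. Ifih1, which encodes MDA5, the helicase for long double-stranded RNA, had levels of 7.48, 7.47, 7.68 and 7.65 in the control libraries and 5.92, 5.94, 5.78 and 6.46 in the Atad2 libraries. The groups did not overlap, and the log2 fold change was -1.55 ± 0.19 (adjusted p = 5.4e-07). Reads on Ifih1 numbered 175 to 236 in the controls and 42 to 75 after Atad2 knockdown. Tlr3, the endosomal receptor for double-stranded RNA, had levels of 8.44, 8.68, 8.55 and 8.64 in the controls against 7.02, 7.08, 7.10 and 7.46 in the Atad2 libraries. It was lower in all 4, with a log2 fold change of -1.42 ± 0.13 (adjusted p = 1.3e-08). Ddx58, which encodes RIG-I, the helicase for RNA with a 5′ triphosphate, ran from 9.85 to 10.10 in the controls and from 9.23 to 9.54 in the Atad2 libraries. It fell as well, with a log2 fold change of -0.57 ± 0.08 (adjusted p = 3.5e-06).

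The cytosolic DNA sensor cGAS (listed as Mb21d1) lay between 8.73 and 9.07 in the controls and between 8.58 and 8.73 in the Atad2 libraries, and the nearest libraries of the groups were at 8.734 and 8.733. Limma gave a log2 fold change of -0.24 ± 0.10 (adjusted p = 0.045), and the call was lost under 9 of 16 refits, where the adjusted p ran from 0.0517 to 0.534. Dhx58, which encodes LGP2, the third RIG-I-like helicase, overlapped between groups (0.16 ± 0.26, adjusted p = 0.62). Zbp1, a sensor of Z-form nucleic acids, had few reads. In 3 control libraries it had levels of 3.71 to 3.73 and in the fourth 1.83, while the Atad2 libraries ran from 2.53 to 3.58 (log2 fold change -0.09 ± 0.60, adjusted p = 0.9). Its 95% interval, -1.34 to 1.16, included a 2-fold change in either direction.

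None of the 3 adaptors fell. Mavs, the mitochondrial adaptor of the RIG-I-like helicases, had levels of 11.39, 11.37, 11.40 and 11.49 in the controls against 11.82, 11.79, 11.85 and 11.82 in the Atad2 libraries. All 4 Atad2 libraries were higher, with a log2 fold change of 0.41 ± 0.04 (adjusted p = 2.8e-08). Tmem173, which encodes STING, the adaptor of cGAS, overlapped between groups (8.78 to 9.15 and 9.04 to 9.54) and did not pass (0.19 ± 0.11, adjusted p = 0.14, 95% interval -0.04 to 0.42). Trim25, the ubiquitin ligase that assists RIG-I signalling, had a log2 fold change of -0.03 ± 0.05 (adjusted p = 0.56) with an interval of -0.13 to 0.07. The RIG-I and MDA5 transcripts and that of their shared adaptor passed in opposite directions.

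Of the 2 receptor chains and 2 kinases, 1 rose, 1 fell and 2 did not pass. Ifnar1, the signalling chain of the type I interferon receptor, had levels of 12.33, 12.40, 12.34 and 12.34 in the controls against 12.61, 12.62, 12.63 and 12.56 in the Atad2 libraries, a log2 fold change of 0.25 ± 0.03 (adjusted p = 1.9e-06). Ifnar2, the high-affinity chain, overlapped (-0.02 ± 0.05, adjusted p = 0.75, interval -0.13 to 0.09). Jak1, the kinase bound to Ifnar2, had levels of 14.06, 14.05, 14.08 and 14.10 in the controls against 14.01, 13.94, 13.92 and 14.01 in the Atad2 libraries. It was lower in all 4, with a log2 fold change of -0.10 ± 0.03 (adjusted p = 0.0072). Tyk2, the kinase bound to Ifnar1, had a log2 fold change of 0.00 ± 0.05 (adjusted p = 0.98) with an interval of -0.10 to 0.10.

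Among the 7 transcription factors Stat2 fell, Irf5 rose and 5 did not pass. Stat2, a subunit of the complex that binds the ISRE, had levels of 10.90, 10.77, 10.88 and 10.90 in the controls against 10.35, 10.39, 10.39 and 10.58 in the Atad2 libraries. The groups did not overlap, with a log2 fold change of -0.43 ± 0.06 (adjusted p = 1.9e-06). Irf9, its DNA-binding partner, had levels of 8.85, 8.93, 9.09 and 8.87 in the controls against 8.58, 8.66, 8.91 and 8.77 in the Atad2 libraries. The groups overlapped and the gene did not pass (-0.21 ± 0.10, adjusted p = 0.077), although it did without Atad2 replicate 3 (adjusted p = 0.0307). Irf1, Irf2 and Irf3 had log2 fold changes between -0.07 and 0.02, with 95% intervals whose outermost bounds were -0.17 and 0.14. Irf7, the factor that amplifies interferon production and is itself interferon-induced, was weak (5.18 to 6.09 in the controls, 5.21 to 5.54 after knockdown) and did not pass (-0.22 ± 0.29, adjusted p = 0.53). Irf5, active mainly in myeloid cells, overlapped between groups (7.591 to 8.058 and 8.022 to 8.501) but passed as higher, with a log2 fold change of 0.45 ± 0.14 (adjusted p = 0.0092).

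Effectors held most of the falls: of 27 listed, 21 were tested, 16 fell, 2 rose and 3 did not pass. Over all genes tested, 29.6% were lower and 30.8% higher, with 19.9% to 44.6% lower in the bands of level. The median log2 fold change of the 21 effectors was -0.44. Of these 21, 8 fell at least 2-fold and 2 rose at least 2-fold, against 8.61% and 2.52% of all genes tested. No share at 2-fold was taken by band of level, and falls of all genes depended on level. Their median log2 fold change was -0.56 from level 3 to 5, -0.43 from 5 to 8 and 0.10 above 12. The guanylate-binding proteins, interferon-induced GTPases that attack the membranes around intracellular pathogens, lie close together on mouse chromosome 3 (Gbp7 at chr3:142530342-142550149, Gbp3 at chr3:142560026-142573209, Gbp2 at chr3:142620602-142638008, GENCODE annotation of GRCm38), and all 3 fell. Gbp7 had levels of 7.30, 6.88, 7.38 and 7.40 in the controls against 4.12, 3.53, 4.15 and 4.00 in the Atad2 libraries, or 116 to 198 reads against 11 to 18. Its log2 fold change of -3.29 ± 0.27 (adjusted p = 1.3e-09) was the lowest in the set. Gbp2 had levels of 7.81, 7.74, 7.92 and 7.76 in the controls and spread from 4.58 to 6.57 in the Atad2 libraries, without overlap. The difference on the log2 scale was -2.11 ± 0.29 (adjusted p = 2.4e-06). Gbp3 had levels of 5.56, 6.26, 6.16 and 6.19 in the controls against 4.52, 5.19, 4.25 and 5.11 in the Atad2 libraries, a log2 fold change of -1.28 ± 0.30 (adjusted p = 0.0012). Related guanylate-binding genes share sequence, so reads may have been split between them.

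Parp14, Parp9 and Dtx3l form a second cluster, on mouse chromosome 16 (chr16:35832874-35871544, chr16:35938470-35972605 and chr16:35926511-35939151), and all 3 fell. Parp9 and Parp14 belong to the ADP-ribosyltransferase family, and Dtx3l is the ubiquitin ligase that pairs with Parp9. Parp14 had levels of 8.63, 8.52, 8.74 and 8.48 in the controls against 5.83, 6.17, 6.11 and 7.07 in the Atad2 libraries, or 365 to 461 reads against 53 to 115. The log2 fold change was -2.30 ± 0.20 (adjusted p = 4.4e-09), and Atad2 replicate 4 was the highest of its group. Dtx3l ran from 9.71 to 9.86 in the controls and from 8.85 to 9.11 in the Atad2 libraries (-0.81 ± 0.08, adjusted p = 2.4e-08). Parp9 ran from 8.51 to 8.85 and from 7.82 to 8.12 (-0.74 ± 0.12, adjusted p = 1.3e-05). The exons of Parp9 and Dtx3l overlap on opposite strands, and whether the authors counted by strand is not stated in the labels. Reads of these 2 genes may therefore not be fully separated.

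The Ifit genes did not all move one way although they lie close together on mouse chromosome 19 (Ifit2 at chr19:34550694-34576419, Ifit3 at chr19:34583531-34588731, Ifit1 at chr19:34640871-34650009). Ifit2 was the strongest of them in RPKM, with levels of 10.49, 10.51, 10.58 and 10.37 in the controls against 9.38, 9.30, 9.38 and 9.62 in the Atad2 libraries, or 1453 to 1647 reads against 518 to 726. It fell, with a log2 fold change of -1.07 ± 0.07 (adjusted p = 1.2e-10). Ifit3 had levels of 5.00, 5.33, 5.57 and 5.32 in the controls against 3.88, 4.11, 2.62 and 4.79 in the Atad2 libraries, from 33 to 50 reads against 4 to 23. The log2 fold change was -1.46 ± 0.43 (adjusted p = 0.0058), a call lost with quantile normalization (adjusted p = 0.0706). Its near-identical copy Ifit3b had a log2 fold change of -0.20 (adjusted p = 0.736), and reads may have been split between them. Ifit1, whose protein binds viral RNA that lacks host cap marks, went the other way. It had levels of 4.44, 4.01, 4.60 and 5.35 in the controls against 6.86, 5.77, 6.03 and 7.19 in the Atad2 libraries, or 15 to 47 reads against 50 to 126. The groups did not overlap, and the log2 fold change was 1.86 ± 0.35 (adjusted p = 1.0e-04).

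The 2 Oasl genes, relatives of the 2′-5′ oligoadenylate synthetases, lie on mouse chromosome 5 (Oasl2 at chr5:114896936-114912234, Oasl1 at chr5:114923240-114937915) and were also called differently. Oasl1 had levels of 2.92, 3.59, 3.07 and 3.95 in the controls against 6.06, 5.07, 5.35 and 5.85 in the Atad2 libraries, or 7 to 17 reads against 31 to 72. It rose, with a log2 fold change of 2.20 ± 0.39 (adjusted p = 6.6e-05), the highest in the set. Oasl2 overlapped (-0.04 ± 0.37, adjusted p = 0.94), with an interval of -0.80 to 0.73. Whether the change of Oasl1 differs from that of Oasl2 was not tested.

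The other RNA-directed effectors fell. Isg20, an RNA exonuclease, had levels of 7.40, 7.30, 7.49 and 7.51 in the controls against 6.00, 6.20, 5.88 and 6.46 in the Atad2 libraries, a log2 fold change of -1.29 ± 0.19 (adjusted p = 4.5e-06). Eif2ak2, which encodes PKR, the kinase that stops translation on binding double-stranded RNA, had levels of 11.50, 11.66, 11.68 and 11.58 in the controls against 11.35, 11.31, 11.38 and 11.41 in the Atad2 libraries. The groups were separate, with a log2 fold change of -0.24 ± 0.05 (adjusted p = 1.1e-04). Adar, the adenosine deaminase that edits double-stranded RNA, had a log2 fold change of -0.12 ± 0.04 (adjusted p = 0.023), a call lost without Atad2 replicate 2 (adjusted p = 0.101).

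Of the 4 tested membrane proteins that block viral entry or release, 3 fell. Ifitm3 and Ifitm2, which hinder fusion of viral and endosomal membranes, were the most abundant genes of the set per exon length. In RPKM, Ifitm3 went from 212 in the controls to 179 in the Atad2 libraries and Ifitm2 from 137 to 95.6. RPKM was computed from the recovered reads and their total per library, not the size factors, so its ratios differ from the log2 fold changes. On the level scale Ifitm3 had 13.16, 13.11, 13.06 and 13.14 in the controls against 12.93, 12.95, 12.90 and 13.01 in the Atad2 libraries, a log2 fold change of -0.17 ± 0.03 (adjusted p = 2.4e-04). Ifitm2 ran from 12.39 to 12.47 in the controls and from 11.92 to 12.12 in the Atad2 libraries, a log2 fold change of -0.44 ± 0.04 (adjusted p = 2.2e-08). Both were lower in all 4 Atad2 libraries. Ifitm1, at the same locus on chromosome 7, overlapped between groups (0.17 ± 0.17, adjusted p = 0.42). Bst2, which encodes tetherin, the protein that holds budding virions at the cell surface, ran from 9.50 to 9.69 in the controls and from 9.05 to 9.44 in the Atad2 libraries. Limma gave a log2 fold change of -0.29 ± 0.09 (adjusted p = 0.009), and the call was lost with quantile normalization (adjusted p = 0.0976).

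Xaf1, an interferon-induced gene linked to apoptosis, had levels of 7.81, 8.16, 8.11 and 8.26 in the controls against 6.02, 6.36, 6.36 and 7.09 in the Atad2 libraries. It fell, with a log2 fold change of -1.63 ± 0.20 (adjusted p = 4.7e-07). Ifi35 overlapped between groups, with levels of 10.24, 10.14, 10.39 and 10.24 and 9.81, 10.01, 9.72 and 10.16, and passed as lower (-0.33 ± 0.08, adjusted p = 0.0019). Isg15, the ubiquitin-like modifier that is among the first genes induced by interferon, had levels of 4.24, 5.10, 5.96 and 5.35 in the controls against 5.30, 5.84, 5.21 and 5.66 in the Atad2 libraries. The spread between control libraries covered the Atad2 group, and the gene did not pass (0.34 ± 0.34, adjusted p = 0.4, interval -0.37 to 1.06).

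Several classical interferon-stimulated genes had few or no reads in both groups, lay below the filter on mean level and were not tested. Oas1a, an oligoadenylate synthetase gene, had 0 reads in all 8 libraries. Rsad2 (viperin) and the GTPase gene Mx1 each had 1 read in 1 library and 0 in the others. Mx2 had 0, 5, 7 and 8 reads in the control libraries and 1, 0, 0 and 4 in the Atad2 libraries. Ifi44 had 1, 1, 4 and 8 reads in the controls and 0, 2, 1 and 1 in the Atad2 libraries. Usp18, the protease that removes Isg15, had 18, 15, 6 and 9 reads in the controls and 8, 11, 2 and 0 in the Atad2 libraries.

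Per exon length the genes spanned a wide range. Jak1 (56.9 RPKM in the controls, 50.2 in the Atad2 libraries), Ifnar1 (21.7 and 24.4) and Mavs (14.3 and 17.9) lay below Ifitm3 and Ifitm2 and above most effectors. Bst2 (15.6 and 12.2) and Ifi35 (14.5 and 11.0) were the next effectors in RPKM. Ifit2 had 6.09 RPKM in the controls against 2.76 in the Atad2 libraries. Several genes that changed at least 2-fold were weak on this scale: Ifih1 had 0.561 and 0.183 RPKM, Gbp7 0.438 and 0.0401, Ifit1 0.151 and 0.546, and Oasl1 0.0725 and 0.339. After their rise, Ifit1 and Oasl1 still had lower RPKM than Ifit2 had after its fall.

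Of the 47 genes, 39 had a RefSeq promoter window of 250 bases before to 50 after a start site. The ISRE-like pattern was found in a window of 16 of the 39 (41.0%), against 3.99% of 27025 genes with a window, and 3.44% of 32851 windows. The 16 were Bst2, Ddx58, Eif2ak2, Gbp2, Gbp3, Gbp7, Ifih1, Ifit1, Ifit3, Ifitm2, Ifitm3, Irf2, Isg15, Oas1a, Rsad2 and Stat2. Of the 14 with the pattern that were tested, 11 fell, 1 (Ifit1) rose and 2 (Irf2 and Isg15) did not pass, with a median log2 fold change of -0.44. Of the 22 tested genes whose windows lacked it, 9 fell, 4 rose and 9 did not pass, with a median of -0.09. Both counts are to be read against 29.6% lower and 30.8% higher over all genes tested. A difference between the genes with and without the pattern was not tested. In the stretches printed above, the match of Gbp2 begins at base -59 from the start site, that of Gbp7 at -53 and those of Gbp3 at -45 and -39. Ifit1, which rose, has matches at -104 and -85, and Ifit3, which fell, at -156 and -122. Isg15 has 3 overlapping matches, from -78 to -66. No match was found in the windows of Ifit2 or Oasl1. A gamma-activated site (GAS) pattern, TTCNNNGAA, reads the same on both strands in its fixed bases and was found for 13 of the 39 genes (33.3%) against 9.55% of all genes. Of the 12 tested genes with the GAS pattern, 8 fell, 1 rose and 3 did not pass, with a median log2 fold change of -0.207. Of the 24 without it, 12 fell, 4 rose and 8 did not pass, with a median of -0.213. The same shares of all genes, 29.6% lower and 30.8% higher, apply, and this difference was not tested either. Matches of the 2 patterns may overlap. A match is a description of the sequence and does not show binding.

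Further genes of the pathway, from a list of 173 that excluded the 47, were read in the same fit. Of 117 tested, 38 fell, 42 rose and 37 did not pass, and their median log2 fold change was 0.02. The shares, 32.5% lower and 35.9% higher, were near the 29.6% and 30.8% of all genes tested. Of the 117, 113 had a mean above 3 in both groups, and of these 36 were lower, 41 higher and 36 did not pass. Of 7 tested interferon, receptor and signalling genes, 3 fell, among them the kinase gene Jak2 (-0.67 ± 0.04) and Stat3 (-0.57 ± 0.03). The other 4 rose: Il10rb (0.36 ± 0.06), Ifngr1 (0.25 ± 0.06), Ifngr2 (0.17 ± 0.05) and Stat6 (1.00 ± 0.25). Interferon transcripts themselves were nearly absent: Ifnb1, Ifna1, Ifna4, Ifna5, Ifnk, Ifnl2 and Ifnl3 had 0 reads in all 8 libraries. Ifna2 had at most 1 read in a library, Ifng had 0 to 6 reads in each control and 0 in the Atad2 libraries, and Ifne 0 to 12 and 0 to 1.

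In the signalling that links sensors to interferon and NF-kB, 7 of 35 genes fell, 16 rose and 12 did not pass, against 29.6% lower and 30.8% higher over all genes. Those shares are not matched for level, and the 35 genes had mean levels from 3.67 to 14.95. Between levels 10 and 12, 26.6% of all genes were lower and 37.9% higher, and above 12, 19.9% and 54.5%. Among the 35, the rise with the smallest adjusted p was that of Ikbkg (1.15 ± 0.03), the regulatory subunit of the IkB kinase. Next were Ifi203 (0.83 ± 0.05), Irak1 (0.36 ± 0.03) and Relb (0.89 ± 0.09). The falls were led by Tlr2 (-0.89 ± 0.08), a receptor for bacterial lipoproteins, Prkra (-0.25 ± 0.05), Chuk (-0.17 ± 0.04) and Tlr6 (-0.56 ± 0.13). Of 25 negative regulators, with mean levels from 6.37 to 13.53, 5 fell, 10 rose and 10 did not pass, to be read against the same shares. Socs1, the inhibitor of JAK kinases, rose from levels of 8.60, 8.78, 8.58 and 8.57 in the controls to 9.35, 9.47, 9.39 and 9.42 in the Atad2 libraries, a log2 fold change of 0.77 ± 0.09 (adjusted p = 1.6e-07). Nfkbia, which holds NF-kB in the cytosol (0.69 ± 0.04), Nlrc3 (1.34 ± 0.14) and Ptpn1 (0.32 ± 0.04) also rose. Samhd1, which depletes nucleotides (-0.71 ± 0.04), Tnfaip3 (-0.80 ± 0.10), Cyld (-0.16 ± 0.05) and Ptpn11 (-0.10 ± 0.03) fell.

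Among 50 other interferon-stimulated genes that were tested, 23 fell, 12 rose and 15 did not pass, to be read against 29.6% and 30.8% of all genes, with a median log2 fold change of -0.24. Uba7, Slfn2, Ccl5 and Ifitm6 reached the filter through 1 group only. Without these 4, 21 of 46 were lower, 11 higher and 14 did not pass. Lgals9 (-1.30 ± 0.06), Samd9l (-0.98 ± 0.10) and Parp12 (-0.71 ± 0.06), another ADP-ribosyltransferase gene, were among those that fell. Ccl5, a chemokine that is a target of both interferon and NF-kB signalling, had 0 reads in all 4 control libraries and 48 to 105 reads in the Atad2 libraries. Against the limit of 3 reads per control library it was at least 26.0-fold higher. Apol9b (1.16 ± 0.11), whose reads may be shared with its near-identical copy Apol9a, Nampt (0.53 ± 0.03) and Shisa5 (0.48 ± 0.04) rose.

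Markers of other cells were read in the same libraries, since leukocytes and endothelial cells carry high levels of many genes of the set. The 14 leukocyte markers summed to 15.2 to 16.1 RPM in the control libraries and 17.0 to 21.0 in the Atad2 libraries, without overlap, with Adgre1, Tyrobp and Cd3e at 0 in all 8. Only Cd68, a lysosomal protein, passed among the 4 of them tested (1.17 ± 0.11). Csf1r did not pass (0.73 ± 0.39, adjusted p = 0.11), though its levels were higher in all 4 Atad2 libraries. Among the untested markers, Cd74 had 0 to 2 reads in the controls and 5 to 20 in the Atad2 libraries. Lyz2 (1 to 9 and 0 to 6) and Fcer1g (2 to 22 and 1 to 6) had lower mean levels in the Atad2 group. Most of the leukocyte sum came from Cd14 and Cd68. Cd68 had 215 to 313 reads in the controls and 424 to 552 in the Atad2 libraries. Cd14 had 666 to 790 and 437 to 703 and did not pass (-0.13 ± 0.08). The 5 endothelial markers summed to 0.636 to 0.666 RPM in the controls against 0.287 to 0.650 in the Atad2 libraries, with Emcn at 0 in all 8. The 4 fibroblast and adipogenic markers summed to 31.5 to 32.8 and 73.4 to 77.2 RPM, with Adipoq at 0. Nearly all of this sum was Pdgfra, which rose (1.31 ± 0.04). Pdgfra had 1935 to 2291 reads in the controls and 3869 to 5299 in the Atad2 libraries. Dpt had 0 to 14 and 0 to 1 reads, and Pi16 had 2 to 14 and 4 to 15. The 8 myoblast markers summed to 728 to 769 and 749 to 825 RPM, and 5 of them passed as lower and 3 as higher. Pax7, the marker of satellite cells (19 to 41 reads in the controls, 0 to 12 after knockdown), and Msc (42 to 76 and 1 to 10) reached the filter only through the control group; of the other 6, 3 were lower and 3 higher, among them Myog (2.15 ± 0.26), the factor of terminal differentiation. The part of these shifts in the values of the interferon and sensing genes was not tested.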

How the data were processed

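Total RNA of 8 C2C12 libraries was sequenced (4 per group, from the sample titles). The authors deposited log2(normalized count + 1) values, to 3 decimals, for 35976 genes; that each count was divided by 1 size factor per library was read from the values, whose low steps gave whole reads within 0.1 reads. HTSeq 0.13.5, DESeq2, SAMtools 1.1, bcl2fastq 2.20 and the build mm10 (GRCm38) are named in the submitters' processing notes. For the aligner, annotation and strand setting, details were not given in the sources used here. The 19 of the 47 genes whose exons overlap another gene are uncertain.

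The test was limma 3.58.1 (R 4.3.3), with lmFit and trended eBayes, no covariates and genes of mean above 3. The procedure was tested on simulated data with far fewer changed genes than were called here, which does not cover changes this common. RPKM used recovered reads, their total per library and exon lengths of the GENCODE M21 basic annotation. Promoter windows, 250 bases before to 50 after a start, came from RefSeq (GRCm38.p6); 39 of 47 genes matched, Mb21d1 through its newer symbol. Tables and plots used Python 3.11.15, NumPy 2.4.6, pandas 2.3.3 and matplotlib 3.10.9.

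The members and lists were chosen with earlier results of these data known. Every member could be named, and of the pathway list, in each of 4 roles, up to 4 changed genes in each direction by smallest adjusted p. A few of the genes so chosen are not reported here. Interferon genes with few or no reads, markers, Uba7, Slfn2, Ifitm6, Ifit3b and Apol9a were named after their values were seen. Alternatives changed the filter (none, or a mean above 5), the offset (8), the scaling (median centring or quantile normalization), the variance prior (no trend) and the thresholds (adjusted p under 0.01, or at least 2-fold), added the replicate block, used limma-voom on recovered reads, or left out 1 library at a time.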

Additional observations from a re-analysis of the deposited data

Results flagged for a closer look

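Of 82 groups of 4 libraries examined (41 genes in 2 groups), 5 held 1 library far from the other 3, and chance marks about 1 in 20 such groups. Zbp1 had a level of 1.826 in control replicate 4 and 3.707 to 3.725 in the other controls. Trim25 had 11.056 in Atad2 replicate 4 and 11.142 to 11.144 in the other Atad2 libraries. Ifnar2 had 10.577 in control replicate 2 and 10.719 to 10.729 in the others. Stat2 had 10.768 in control replicate 2 and 10.882 to 10.899 in the others. Gbp3 had 5.557 in control replicate 1 and 6.160 to 6.256 in the others, and fell with and without that library. All levels are log2(normalized count + 1).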

How the results depend on the processing

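With a minimum of 2-fold, 10 of the 41 genes were lower and 2 higher. Of the 117 other pathway genes, 10 were lower and 6 higher. Over all genes tested, taken at all levels together, the shares were 8.61% and 2.52%. Quantile normalization gave 9 of the 41 higher and 19 lower, against 4236 and 4059 of all 14703 genes tested. It lost Mb21d1, Ifit3 and Bst2 and added Dhx58, Tmem173, Isg15 and Ifitm1 as higher (adjusted p = 0.0464, 0.0142, 0.0466 and 0.0128 with limma). Leaving out each library gave 21 to 22 of the 41 lower, 5 higher, and 36 to 40 of the pathway genes lower and 38 to 41 higher. Of the 27 changed genes, 23 kept their call under each of the 16 refits that tested them. Mb21d1 lost it without control replicates 1, 2 or 3 or Atad2 replicates 3 or 4 (adjusted p from 0.0664 to 0.161), Adar without Atad2 replicate 2, and Irf9 gained it without Atad2 replicate 3. No direction of a called gene reversed. The causes were not tested.

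The replicate block left 21 of the 41 lower and 5 higher, and 38 and 42 of the pathway genes. Deviations of same-numbered libraries correlated at 0.034, -0.023, 0.021 and 0.011. The labels state no pairing, and this check cannot decide whether same-numbered libraries were handled together, since a small shared effect could go unseen. Zbp1, with 3 to 13 reads in a library, had a 95% interval of -1.34 to 1.16.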
